A study of Capra hircus with 6 samples.

Results

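Integrins, cadherins and protocadherins are the receptors by which cells hold on to the matrix and to each other. Of these genes, 62 carried read counts in a comparison of 3 lines (UCHL1 knockdown, HSPA8 knockdown and control hairpin) of the goat cell line mGSCs-I-SB. The members were taken by gene symbol: every symbol that starts with ITGA, ITGB or PCDH, or with CDH followed by a digit, plus DCHS1, FAT1, FAT4 and L1CAM, with ITGA6 and CDH1 left out. That rule matched 66 symbols, of which 4 (CDH7, CDH19, CDH22 and PCDH15) were blank, so that 62 of the 16599 genes with counts were members. They comprised 16 integrin alpha chains, 8 integrin beta chains, 4 genes named after integrins that are not chains, 18 cadherins, 12 protocadherins and the remaining 4 genes. A low-count filter left 40 members for testing.

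The labels call mGSCs-I-SB spermatogonial stem cells of Capra hircus. The groups were shUCHL1 (short hairpin RNA against UCHL1, a ubiquitin hydrolase), shHSPA8 (short hairpin RNA against HSPA8, a constitutive HSP70 chaperone) and shCON (control hairpin RNA, labelled WT), each as 2 libraries of messenger RNA. All 3 lines carry a hairpin and share the parent line, and the labels give neither the number of hairpins per gene nor separate cultures for the libraries of a line. The p-values therefore rest on a spread between libraries of a line that may be technical.

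As background, an integrin is a pair of 1 alpha and 1 beta chain, and the alpha chain largely sets which matrix protein is bound. The beta 1 chain pairs with most alpha chains, among them the receptors for collagens, laminins and fibronectin. Classical cadherins bind the same cadherin on the next cell and are tied to actin by catenins, while protocadherins are a larger, more varied group with weaker adhesion. In the testis, integrins and cadherins hold spermatogonial stem cells to the basement membrane and to Sertoli cells.

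Total expected counts lay between 1.57e+07 and 1.64e+07 per library. UCHL1 stood at 94.3 and 97.7 CPM (counts relative to the TMM-scaled library total) in shUCHL1, 386 and 334 CPM in shHSPA8, and 405 and 451 CPM in shCON. HSPA8 stood at 5252 and 5345 CPM in shUCHL1, 2631 and 2528 CPM in shHSPA8, and 4016 and 4112 CPM in shCON. Of the 15 markers listed for spermatogonial stem cells, 10 carried counts, and their summed level was 331 to 335 CPM in shUCHL1, 745 to 777 CPM in shHSPA8 and 799 to 832 CPM in shCON. UCHL1 itself is on that list and was the largest part of each sum. Of the other listed markers, THY1 (log2 fold change -1.28, edgeR adjusted p = 8.7e-04) and ADGRA3 (-0.57, edgeR adjusted p = 0.00918) fell in shUCHL1. ID4 (1.20, edgeR adjusted p = 0.0186), RET (2.38, edgeR adjusted p = 0.0100) and CDH1 (3.13, edgeR adjusted p = 0.0109) rose there, the last 2 at low levels. In shHSPA8 only ID4 was called (1.85, edgeR adjusted p = 0.00282). The germ cell gene DDX4 reached at most 1.95 CPM. All 12 markers of peritubular myoid cells and fibroblasts were tested, with summed levels of 22493 to 23377 CPM in shUCHL1, 26721 to 28194 CPM in shHSPA8 and 22838 to 25496 CPM in shCON. COL1A1 and COL1A2 made up most of those sums, and 4 contractile markers went another way in shUCHL1 against shCON: CNN1 (log2 fold change -3.88, edgeR adjusted p = 4.5e-04), DES (-3.85, edgeR adjusted p = 4.0e-04), ACTA2 (-1.58, edgeR adjusted p = 4.3e-04) and TAGLN (-1.38, edgeR adjusted p = 0.00108) fell, while the matrix gene DCN rose (1.07, edgeR adjusted p = 3.4e-04). MYH11, also contractile, was not called in shUCHL1 (0.38, edgeR adjusted p = 0.527), at 1.59 to 3.23 CPM over the libraries. None of the 4 contractile markers that fell was called in shHSPA8. Sertoli cell markers, 8 of 10 with counts, summed to 228 to 231 CPM in shUCHL1, 184 to 230 CPM in shHSPA8 and 259 to 292 CPM in shCON. SOX9 (log2 fold change -1.28, edgeR adjusted p = 0.00113) and GATA4 (-0.90, edgeR adjusted p = 0.00326) fell in shHSPA8, while KITLG, WT1 and AMH were not called there. WT1 (-0.65, edgeR adjusted p = 0.0456) and GATA4 (-0.43, edgeR adjusted p = 0.0494) fell in shUCHL1. SOX9 (-0.47, edgeR adjusted p = 0.0528), KITLG and AMH were not called in that line. Of the 8 leukocyte markers PTPRC had at most 3 counts in a library and ITGB2 at most 3, while LCP1 had 125 to 460 CPM and CD14 34.6 to 61.2 CPM. Of the 7 endothelial markers with counts PECAM1 had at most 11 counts in a library and CDH5, the highest, at most 27. Leydig cell markers, 4 of 7 with counts, summed to 25.3 to 30.6 CPM in shUCHL1, 21.9 to 22.1 CPM in shHSPA8 and 15.1 to 16.9 CPM in shCON. Among them NR5A1 rose in shUCHL1 (log2 fold change 0.53, edgeR adjusted p = 0.0425), LOC102173131 rose in both knockdown lines, and STAR was not called. Among epithelial markers, 9 with counts, the summed level was 7.15 to 7.25 CPM in shUCHL1, 8.08 to 9.29 CPM in shHSPA8 and 23.9 to 26.6 CPM in shCON. KRT8 and KRT18 fell in both knockdown lines, whereas EPCAM (log2 fold change 1.16, edgeR adjusted p = 0.0198) and ESRP1 (3.76, edgeR adjusted p = 0.00298) rose in shUCHL1 at levels of at most 2.87 CPM. The part of these marker levels in the results was not tested, and in bulk libraries fewer cells of a type and less RNA per cell cannot be told apart.

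On the authors' FPKM scale, which is per transcript length, ITGB1 among the beta chains and CDH11 among the cadherins had the highest level in every library. ITGB1 held 92.5% to 94.6% of the summed FPKM of the beta chains in each library. ITGA5, the alpha chain of the fibronectin receptor, or ITGAV, the alpha chain of the vitronectin receptors, was the highest alpha chain in each library, and CDH11, a cadherin of mesenchymal cells, was the highest cadherin, with 45.4% to 53.2% of the summed FPKM of that family. Over the 6 libraries the mean FPKM was 1039 for ITGB1, 157 for CDH11, 136 for ITGA5, 108 for ITGAV, 83.6 for CDH2 (N-cadherin) and 67.9 for CDH13 (T-cadherin). Among protocadherins outside the clusters the leading gene differed by line: PCDH18 was highest in the 4 knockdown libraries and PCDH7 in both shCON libraries.

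**Figure D1:**
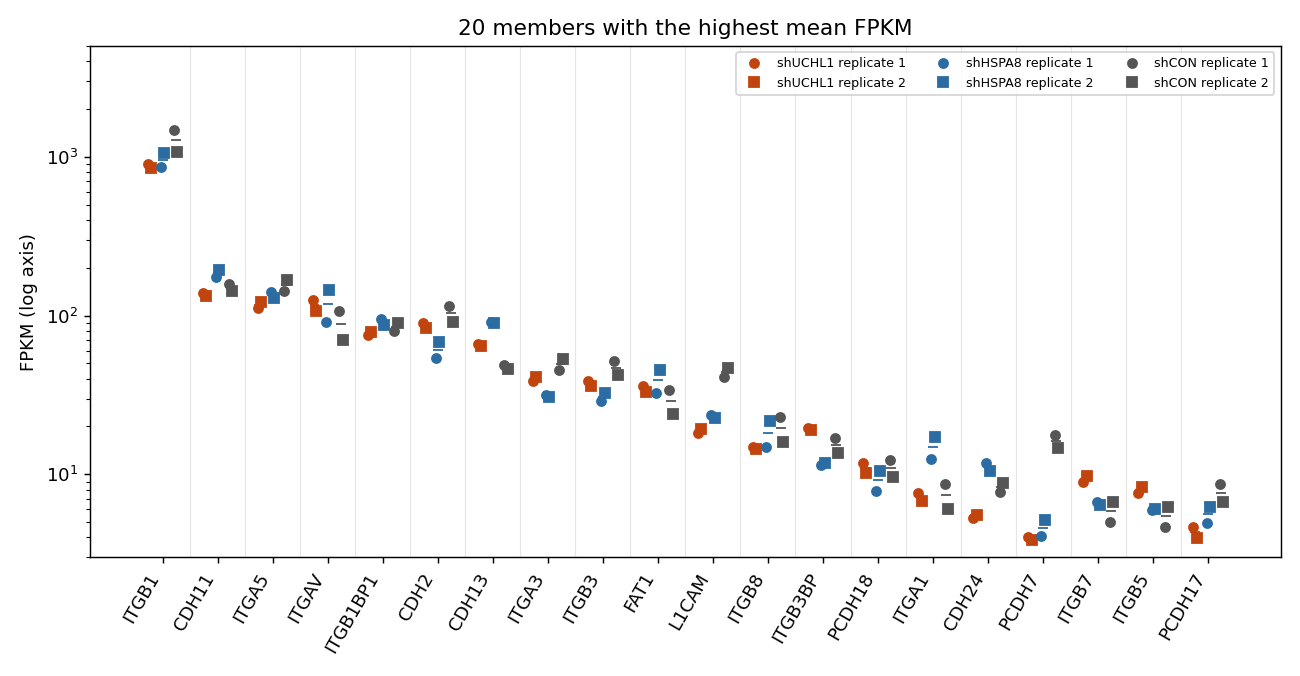
FPKM (log axis) of the 20 members with the highest mean level, for each library of shUCHL1, shHSPA8 and shCON, with short lines at the mean of 2 libraries. ITGB1, at a mean of 1039 FPKM, stands above all other members, and PCDH7 and L1CAM are among the members whose shCON points lie above both knockdown lines.

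In shUCHL1, 17 of the 40 tested members differed from shCON at an adjusted p under 0.05 in edgeR's quasi-likelihood test (8 higher and 9 lower, median log2 fold change -0.05), where 15.7% of all 12665 tested genes did (8.54% higher and 7.15% lower). In shHSPA8, 13 differed from shCON (7 higher and 6 lower, median -0.01), against 14.7% of all genes (8.66% higher and 6.02% lower). Between the knockdown lines, 14 differed (5 higher and 9 lower in shUCHL1, median -0.14), against 14.6% of all genes (6.2% higher and 8.35% lower). The medians over all tested genes were 0.01, 0.00 and 0.02 on the log2 scale. Scaled by library size alone, 16 members differed between the knockdown lines, 8 each way, and DESeq2 gave 12, with 3 higher and 9 lower, so the split by direction depends on the scaling there. Over all tested genes, 2079 differed by library size alone (1339 higher and 740 lower) and 1616 with DESeq2 (601 higher and 1015 lower). With a correction for transcript length, chosen after seeing the data, 21 members differed between shUCHL1 and shCON, 7 higher and 14 lower. That correction also raised the count over all tested genes, to 2732 (1375 higher and 1357 lower) from 1987. Some members, ITGA9 among them, passed the filter only through the line where they were high, so these counts describe the members and nothing more. Both comparisons with shCON share the same 2 control libraries.

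Calls that held in all 12 alternative settings, including the omission of any 1 library, were 5 in shUCHL1 (lower L1CAM, ITGA2 and PCDH7, higher CDH6 and CDH18) and 6 in shHSPA8 (lower L1CAM, ITGA3 and PCDH7, higher CDH13, ITGA8 and ITGA9). Between the knockdown lines they were 4: CDH6 was higher in shUCHL1, and CDH24, ITGA8 and ITGA9 were lower in it. For the other calls, the left-out libraries and the settings that end them are given beside the gene, apart from a block on the replicate number, which also ended 13 of them and is described with the processing alternatives. When 1 library of a line is left out, the remaining one is assumed to vary like the other lines.

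**Figure D2:**
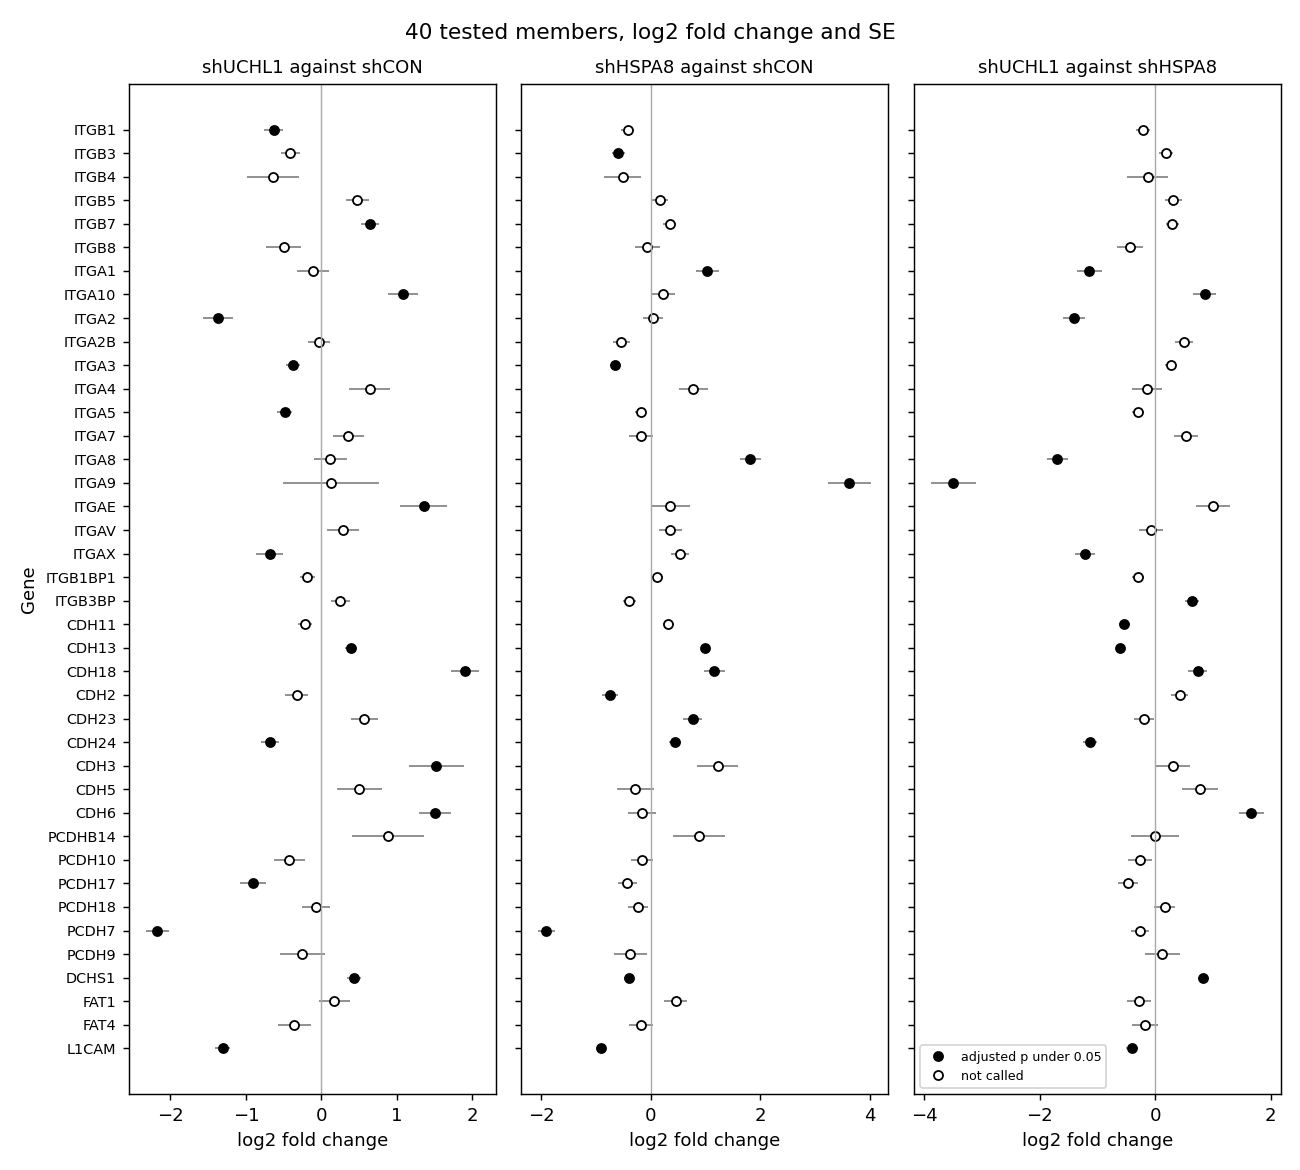
Log2 fold change of the 40 tested members in each comparison, with bars of 1 SE (approximated from the F statistic), filled points for an adjusted p under 0.05 and open points otherwise, each panel on its own axis range. PCDH7 and L1CAM lie left of 0 in both comparisons with shCON, while ITGA8 and ITGA9 lie far right only in the panel of shHSPA8 against shCON, and their difference between the knockdown lines is shown by the filled points in the third panel.

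The beta chains were led by ITGB1, the common partner of the matrix receptors, whose transcripts were lower in shUCHL1 than in shCON. ITGB1 had 2803 and 2750.3 CPM in shUCHL1, 3007 and 3404 CPM in shHSPA8, and 4826 and 3778 CPM in shCON. All 4 knockdown libraries lay under both control libraries, and the shCON libraries themselves were far apart. It was 1.55-fold lower in shUCHL1 (log2 fold change -0.63, SE 0.13, edgeR adjusted p = 0.0164) and not called in shHSPA8 (-0.42, SE 0.13, edgeR adjusted p = 0.0659). The call in shUCHL1 was lost without shUCHL1 replicate 1 or 2 (edgeR adjusted p = 0.103 and 0.110, and 2.0e-04 to 0.110 over all alternatives), and after the length correction the difference in shHSPA8 was called as well (-0.40, edgeR adjusted p = 0.0155).

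ITGB3, which pairs with ITGAV to bind vitronectin and other matrix proteins, had 196 and 184 CPM in shUCHL1, 156 and 179 CPM in shHSPA8, and 279 and 226 CPM in shCON. Both shHSPA8 libraries and both shUCHL1 libraries lay under the control libraries. The 1.51-fold fall in shHSPA8 passed the test (log2 fold change -0.59, SE 0.13, edgeR adjusted p = 0.0211) and was lost without shHSPA8 replicate 1 (edgeR adjusted p = 0.122, and 6.2e-04 to 0.122 over all alternatives). In shUCHL1 the log2 fold change was -0.41 (SE 0.12, edgeR adjusted p = 0.0693). ITGB7, a chain best known from leukocytes, went the other way, with 33.6 and 31.5 CPM in shUCHL1, 25.3 and 27.7 CPM in shHSPA8, and 19.5 and 22.3 CPM in shCON. It rose 1.56-fold in shUCHL1 (0.64, SE 0.12, edgeR adjusted p = 0.0129), with no overlap between the lines, and the call was lost without shUCHL1 replicate 1 or 2 (edgeR adjusted p = 0.145 and 0.0971, and 0.00518 to 0.145 over all alternatives). ITGB4, ITGB5 and ITGB8 were called in none of the 3 comparisons, and none of the 6 tested beta chains was called between the knockdown lines.

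The alpha chains are given by the ligand they are known for. Of the collagen receptors that pair with ITGB1, ITGA2 was lower in shUCHL1 and ITGA1 was higher in shHSPA8. ITGA2 had 10.3 and 10.1 CPM in shUCHL1, 23.4 and 30.7 CPM in shHSPA8, and 30.3 and 22.3 CPM in shCON. The shUCHL1 libraries stood apart below the other 4, which overlapped. ITGA2 was 2.58-fold lower in shUCHL1 than in shCON (log2 fold change -1.37, SE 0.20, edgeR adjusted p = 0.00484) and 2.65-fold lower than in shHSPA8 (-1.41, SE 0.20, edgeR adjusted p = 0.00555). The second call was lost without shUCHL1 replicate 1 or 2 (edgeR adjusted p = 0.0536 and 0.0558, and 8.7e-09 to 0.0558 over all alternatives).

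ITGA1 had 45.1 and 39.6 CPM in shUCHL1, 78.1 and 109 CPM in shHSPA8, and 53.8 and 37.5 CPM in shCON. Both shHSPA8 libraries were above the other 4, and they differed from each other by more than the shUCHL1 pair did. The gene rose 2.05-fold in shHSPA8 (log2 fold change 1.03, SE 0.21, edgeR adjusted p = 0.0190) and was 2.21-fold lower in shUCHL1 than in shHSPA8 (-1.14, SE 0.21, edgeR adjusted p = 0.0152). The rise was lost without shHSPA8 replicate 2 (edgeR adjusted p = 0.0836, and 1.1e-05 to 0.0836 over all alternatives), and the difference between the knockdown lines without shUCHL1 replicate 1 or 2 or shHSPA8 replicate 2 (edgeR adjusted p = 0.0836, 0.112 and 0.0597, and 7.5e-07 to 0.112 over all alternatives). ITGA1 shares its locus with PELO, which had a log2 fold change of 0.00 in shHSPA8 (edgeR adjusted p = 0.991). ITGA10, a collagen receptor known from cartilage, was 2.12-fold higher in shUCHL1 (1.08, SE 0.20, edgeR adjusted p = 0.0119), at 6.60 and 6.48 CPM in shUCHL1, 4.17 and 3.04 CPM in shHSPA8, and 2.91 and 3.24 CPM in shCON. That call was lost without shUCHL1 replicate 1 or 2 (edgeR adjusted p = 0.0987 and 0.0871, and 0.00939 to 0.0987 over all alternatives). Against shHSPA8 it was 1.81-fold higher (0.86, SE 0.19, edgeR adjusted p = 0.0286), a call lost with DESeq2 and without shUCHL1 replicate 1 or 2 or shHSPA8 replicate 2 (adjusted p = 0.0660 with DESeq2 and 0.190, 0.171 and 0.129 with edgeR, and 0.0184 to 0.190 over all alternatives). ITGA11, the fourth collagen receptor, had 13 counts over the 6 libraries and was not tested.

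ITGA3, a laminin receptor, had 161 and 171 CPM in shUCHL1, 139 and 137 CPM in shHSPA8, and 201 and 231 CPM in shCON. All 4 knockdown libraries lay under both control libraries. The 1.56-fold fall in shHSPA8 (log2 fold change -0.65, SE 0.10, edgeR adjusted p = 0.00525) held in every alternative. The 1.30-fold fall in shUCHL1 (-0.38, SE 0.10, edgeR adjusted p = 0.0400) was lost with scaling by library size alone, with 2 lines in the fit, and without shCON replicate 2 or any library of the knockdown lines (edgeR adjusted p from 0.0676 to 0.314 for those settings, and 0.0104 to 0.314 over all alternatives). ITGA7, the other laminin chain among the members, was not called, at 2.21 to 3.73 CPM.

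Of the chains that bind the RGD motif of fibronectin and related proteins, ITGA5 was lower in shUCHL1 and ITGA8 was higher in shHSPA8. ITGA5 had 445 and 484 CPM in shUCHL1, 595 and 548 CPM in shHSPA8, and 604 and 696 CPM in shCON. The shUCHL1 libraries were below the other 4. It was 1.40-fold lower in shUCHL1 (log2 fold change -0.48, SE 0.10, edgeR adjusted p = 0.0187), a call lost without shUCHL1 replicate 1 or 2 (edgeR adjusted p = 0.190 and 0.104, and 0.00311 to 0.190 over all alternatives). ITGA8, which pairs with ITGB1 to bind nephronectin and fibronectin, had 1.77 and 1.68 CPM in shUCHL1, 5.69 and 5.50 CPM in shHSPA8, and 1.46 and 1.71 CPM in shCON. Both shHSPA8 libraries stood well above the other 4, 3.51-fold higher than shCON (1.81, SE 0.19, edgeR adjusted p = 0.00114), and shUCHL1 was 3.23-fold lower than shHSPA8 (-1.69, SE 0.19, edgeR adjusted p = 0.00249). ITGAV was not called in any comparison, at 762 and 682 CPM in shUCHL1, 629 and 886 CPM in shHSPA8, and 704 and 482 CPM in shCON. Within shHSPA8 and within shCON, though not within shUCHL1, its libraries lay further apart than the line means did. ITGA2B, the platelet chain, was not called either, at 4.68 to 7.47 CPM.

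ITGA9, which binds tenascin-C and osteopontin among other ligands, showed the largest fold change of the tested members. It had 3 and 6 counts in shUCHL1, 49 and 50 counts in shHSPA8, and 2 and 6 counts in shCON. The shHSPA8 libraries stood alone at 3.10 and 3.23 CPM, with 0.183 and 0.36 CPM in shUCHL1 and 0.127 and 0.367 CPM in shCON. The rise in shHSPA8 was 12.4-fold (log2 fold change 3.63, SE 0.40, edgeR adjusted p = 0.00134), and shUCHL1 was 11.3-fold lower than shHSPA8 (-3.50, SE 0.39, edgeR adjusted p = 0.00249). With 8 counts over both shCON libraries, the size of the fold is imprecise. ITGA9 passed the low-count filter only through shHSPA8, the line where it was high. Its related chain ITGA4 was not called in any comparison, at 3.06 to 7.89 CPM.

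Of the chains best known from leukocytes, ITGAX was lower in shUCHL1 than in shHSPA8 and ITGAE was higher in shUCHL1 than in shCON, both at low levels. ITGAX had 3.54 and 2.88 CPM in shUCHL1, 7.46 and 7.50 CPM in shHSPA8, and 5.51 and 4.84 CPM in shCON, an order in which no lines overlapped. Between the knockdown lines it was 2.33-fold lower in shUCHL1 (log2 fold change -1.22, SE 0.18, edgeR adjusted p = 0.00598), lost without shUCHL1 replicate 2 (edgeR adjusted p = 0.0764, and 0.00110 to 0.0764 over all alternatives). The 1.61-fold fall against shCON (-0.69, SE 0.18, edgeR adjusted p = 0.0446) was lost without any 1 library, with 2 lines in the fit, with scaling by library size alone and with DESeq2 (adjusted p from 0.0502 to 0.289 for those settings, and 0.0190 to 0.289 over all alternatives). ITGAE, at 1.83 and 2.64 CPM in shUCHL1, 1.20 and 1.03 CPM in shHSPA8, and 1.01 and 0.735 CPM in shCON, rose 2.55-fold in shUCHL1 (1.35, SE 0.31, edgeR adjusted p = 0.0274). That call was lost with DESeq2 (adjusted p = 0.0982) and without shCON replicate 2 or shUCHL1 replicate 1 or 2 (edgeR adjusted p = 0.101, 0.0641 and 0.207, and 0.0190 to 0.207 over all alternatives), and ITGAE shares its locus with GSG2. GSG2 was more abundant, at 31.6 and 32.3 CPM in shUCHL1 and 28.2 and 27.3 CPM in shCON (log2 fold change 0.20, edgeR adjusted p = 0.241). Since the strand setting is not given, reads of GSG2 and ITGAE may not have been told apart. The defining leukocyte chains ITGB2, ITGAL and ITGAM had 5 counts or fewer each over the 6 libraries. The summed level of the 8 leukocyte markers was 175 to 190.2 CPM in shUCHL1, 301 to 305 CPM in shHSPA8 and 499.7 to 506 CPM in shCON. Most of it came from LCP1, which fell in shUCHL1 (log2 fold change -1.84, edgeR adjusted p = 8.3e-05) and shHSPA8 (-0.96, edgeR adjusted p = 3.8e-04). CORO1A fell in shUCHL1 (-0.94, edgeR adjusted p = 0.0392), whereas CD14 rose in shHSPA8 (0.70, edgeR adjusted p = 0.00662). The part of these markers in the results was not tested.

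Among the genes named after integrins, ITGB1BP1, which encodes an inhibitor of beta 1 activation, was not called, at 59.6 to 77.8 CPM. ITGB3BP, which encodes a centromere protein first found through the beta 3 tail, had 64.8 and 63.0 CPM in shUCHL1, 40.2 and 41.7 CPM in shHSPA8, and 59.8 and 47.6 CPM in shCON. Between the knockdown lines it was 1.56-fold higher in shUCHL1 (log2 fold change 0.64, SE 0.12, edgeR adjusted p = 0.0174), with no overlap, and not called against shCON. The call was lost without any 1 library of those lines (edgeR adjusted p from 0.0700 to 0.143, and 0.00169 to 0.143 over all alternatives), and the gene shares its locus with ALG6, which had a log2 fold change of 0.51 (edgeR adjusted p = 0.0711).

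**Figure D3:**
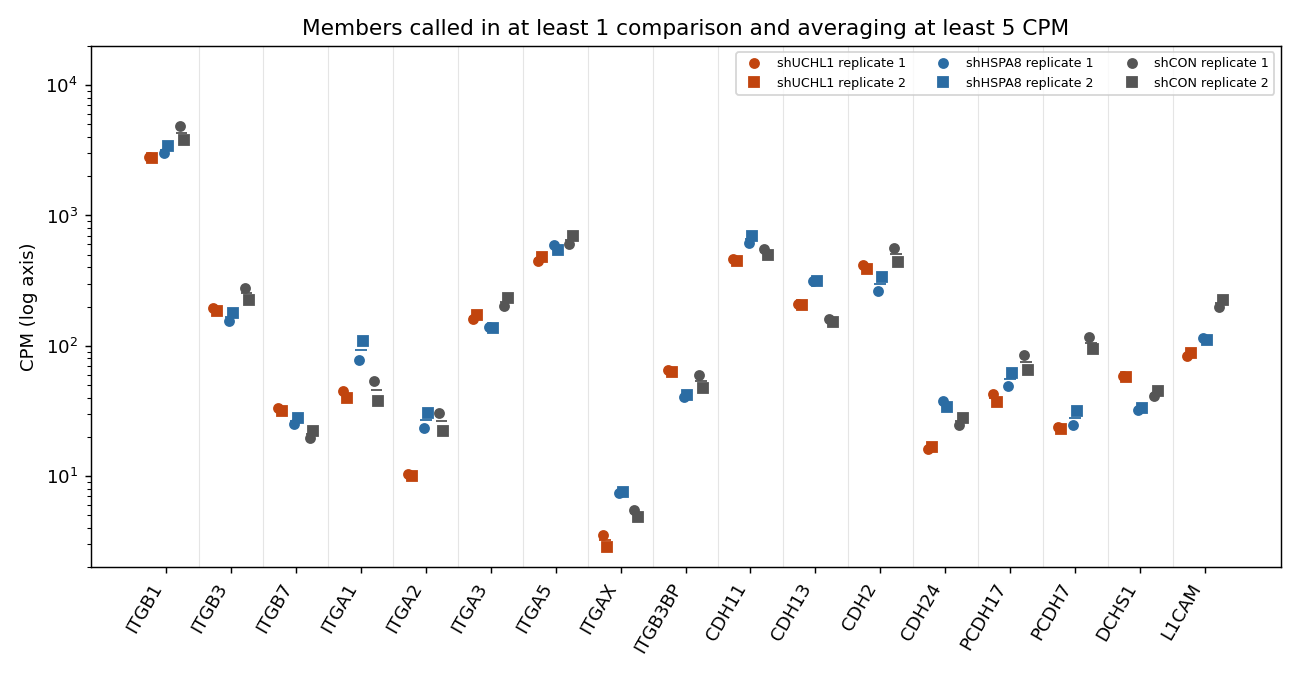
CPM (log axis) of the 17 members that were called in at least 1 comparison and averaged at least 5 CPM, for each library of shUCHL1, shHSPA8 and shCON, with short lines at the mean of 2 libraries. ITGA2 and CDH24 are lowest in shUCHL1, CDH13 and ITGA1 are highest in shHSPA8, and PCDH7 and L1CAM are highest in shCON.

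Of the abundant cadherins, CDH13 was higher in both knockdown lines and CDH2 was lower in shHSPA8. CDH13, or T-cadherin, is held by a lipid anchor, lacks the catenin-binding tail and binds adiponectin. It had 208 and 204 CPM in shUCHL1, 313 and 312 CPM in shHSPA8, and 161 and 153 CPM in shCON. The libraries of each line agreed closely and no lines overlapped. It rose 1.99-fold in shHSPA8 (log2 fold change 0.99, SE 0.08, edgeR adjusted p = 3.5e-04), and 1.31-fold in shUCHL1 (0.39, SE 0.08, edgeR adjusted p = 0.0171), and was 1.52-fold lower in shUCHL1 than in shHSPA8 (-0.60, SE 0.08, edgeR adjusted p = 0.00426). Without shUCHL1 replicate 1 or 2 the rise in shUCHL1 was lost (edgeR adjusted p = 0.211 and 0.175, and 0.00647 to 0.211 over all alternatives), as was the difference between the knockdown lines (edgeR adjusted p = 0.0776 and 0.0801, and 2.5e-05 to 0.0801 over all alternatives).

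CDH2, the N-cadherin of mesenchymal, neural and Sertoli cells, had 417 and 387 CPM in shUCHL1, 264 and 336 CPM in shHSPA8, and 566 and 441 CPM in shCON. The shHSPA8 libraries were the lowest. It fell 1.68-fold in shHSPA8 (log2 fold change -0.75, SE 0.15, edgeR adjusted p = 0.0191), a call lost without shHSPA8 replicate 1 (edgeR adjusted p = 0.0930, and 7.9e-05 to 0.0930 over all alternatives), and had a log2 fold change of -0.32 (SE 0.15, edgeR adjusted p = 0.212) in shUCHL1. CDH11 had 462 and 444 CPM in shUCHL1, 619 and 698 CPM in shHSPA8, and 557 and 498 CPM in shCON. No lines overlapped, yet only the difference between the knockdown lines passed the test, 1.45-fold lower in shUCHL1 (-0.54, SE 0.10, edgeR adjusted p = 0.0127). It was lost without shUCHL1 replicate 1 or 2 or shHSPA8 replicate 2 (edgeR adjusted p = 0.113, 0.136 and 0.0703, and 5.4e-04 to 0.136 over all alternatives).

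Less abundant cadherins of the type II class, which share adhesion specificity within subgroups, moved in different directions. CDH24 had 16.1 and 16.7 CPM in shUCHL1, 37.5 and 34.0 CPM in shHSPA8, and 24.6 and 28.0 CPM in shCON. The knockdown lines lay on opposite sides of the control. Between the knockdown lines it was 2.18-fold lower in shUCHL1 (log2 fold change -1.12, SE 0.12, edgeR adjusted p = 0.00220), which held in every alternative. Against shCON it fell 1.60-fold in shUCHL1 (-0.68, SE 0.12, edgeR adjusted p = 0.0107) and rose 1.36-fold in shHSPA8 (0.44, SE 0.12, edgeR adjusted p = 0.0445). The fall was lost without shUCHL1 replicate 1 or 2 (edgeR adjusted p = 0.119 and 0.0932, and 0.00170 to 0.119 over all alternatives). The rise was lost with every alternative, the replicate block included, other than the length correction and the omission of shCON replicate 2 (adjusted p from 0.0253 to 0.219 over all alternatives).

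CDH6, which marks the developing kidney tubule, had 4.77 and 4.80 CPM in shUCHL1, 1.26 and 1.75 CPM in shHSPA8, and 1.65 and 1.71 CPM in shCON. It was 2.84-fold higher in shUCHL1 than in shCON (log2 fold change 1.5, SE 0.21, edgeR adjusted p = 0.00441) and 3.17-fold higher than in shHSPA8 (1.66, SE 0.22, edgeR adjusted p = 0.00426). The shHSPA8 and shCON libraries overlapped. CDH18, a type II cadherin of the nervous system, had 7.03 and 8.33 CPM in shUCHL1, 4.80 and 4.40 CPM in shHSPA8, and 1.96 and 2.14 CPM in shCON, with no overlap. It rose 3.73-fold in shUCHL1 (1.90, SE 0.19, edgeR adjusted p = 0.00105) and 2.24-fold in shHSPA8 (1.16, SE 0.20, edgeR adjusted p = 0.00884), and the shUCHL1 level was 1.67-fold above that of shHSPA8 (0.74, SE 0.17, edgeR adjusted p = 0.0283). The rise in shHSPA8 was lost without shHSPA8 replicate 1 (edgeR adjusted p = 0.0523, and 0.00441 to 0.0523 over all alternatives). The difference between the knockdown lines was lost with DESeq2 and without any 1 library of those lines (adjusted p = 0.102 with DESeq2 and 0.111 to 0.246 with edgeR, and 0.0184 to 0.246 over all alternatives).

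CDH3, the P-cadherin of epithelia, had 16 and 14 counts in shUCHL1, 11 and 12 counts in shHSPA8, and 5 counts in each shCON library. Its 2.87-fold rise in shUCHL1 (log2 fold change 1.52, SE 0.36, edgeR adjusted p = 0.0317) was lost with DESeq2, with no filter on low counts and without any 1 library (adjusted p from 0.0515 to 0.253 for those settings, and 0.0257 to 0.253 over all alternatives). CDH23, known from the tip links of hair cells, had 4.95 and 4.68 CPM in shUCHL1, 5.44 and 5.56 CPM in shHSPA8, and 3.61 and 2.88 CPM in shCON. Its 1.70-fold rise in shHSPA8 (0.76, SE 0.18, edgeR adjusted p = 0.0320) was lost with DESeq2, with 2 lines in the fit and on leaving out any library but shCON replicate 1 (with adjusted p of 0.0740 to 0.131 for those settings, and 0.0173 to 0.131 over all alternatives). CDH23 shares its locus with PSAP, a far more abundant gene that rose by 0.51 on the log2 scale in shHSPA8 (edgeR adjusted p = 0.00790), and since the strand setting is not given, reads of these genes may not have been told apart. CDH5, the VE-cadherin of endothelium, was not called in any comparison, at 0.759 to 1.65 CPM.

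PCDH7, a protocadherin outside the gene clusters, was the member that fell most in both knockdown lines. It had 23.9 and 22.8 CPM in shUCHL1, 24.8 and 31.4 CPM in shHSPA8, and 116 and 94.9 CPM in shCON. All 4 knockdown libraries lay far under both control libraries. The fall was 4.52-fold in shUCHL1 (log2 fold change -2.18, SE 0.15, edgeR adjusted p = 3.2e-04) and 3.75-fold in shHSPA8 (-1.91, SE 0.15, edgeR adjusted p = 3.5e-04), and the knockdown lines were not called against each other (-0.27, SE 0.15, edgeR adjusted p = 0.286) before the length correction. Since shCON was the only control line, a change in that line and a shared change in the knockdown lines cannot be told apart.

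PCDH17, of the delta protocadherins, had 43.0 and 36.9 CPM in shUCHL1, 48.9 and 62.3 CPM in shHSPA8, and 85.0 and 64.8 CPM in shCON. It fell 1.88-fold in shUCHL1 (log2 fold change -0.91, SE 0.18, edgeR adjusted p = 0.0148) and was not called in shHSPA8 (-0.43, SE 0.17, edgeR adjusted p = 0.150). The shUCHL1 libraries were the lowest and did not overlap with shHSPA8, although the knockdown lines were not called against each other (-0.48, SE 0.18, edgeR adjusted p = 0.113). The fall was lost without shUCHL1 replicate 1 or 2 (edgeR adjusted p = 0.0623 and 0.112, and 1.6e-05 to 0.112 over all alternatives). PCDH9, PCDH10 and PCDH18, also tested, were called in none of the 3 comparisons. Of the clustered protocadherins, PCDHB14 alone was tested and was not called. Its estimated counts carry decimal fractions, and how reads were shared among its near-identical neighbours is not given.

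L1CAM, an immunoglobulin adhesion molecule of neurons and migrating cells that also binds integrins, was lower in both knockdown lines. It had 83.5 and 88.1 CPM in shUCHL1, 115 and 111 CPM in shHSPA8, and 199.7 and 225 CPM in shCON. The 3 lines did not overlap. It fell 2.48-fold in shUCHL1 (log2 fold change -1.31, SE 0.10, edgeR adjusted p = 3.6e-04) and 1.87-fold in shHSPA8 (-0.91, SE 0.10, edgeR adjusted p = 0.00113). Set against shHSPA8, the shUCHL1 level was 1.32-fold lower (-0.40, SE 0.10, edgeR adjusted p = 0.0340), a call lost with scaling by library size alone and without any 1 library of those lines (edgeR adjusted p from 0.0819 to 0.296, and 0.0110 to 0.296 over all alternatives).

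DCHS1 and FAT4 encode giant cadherins that bind each other across neighbouring cells in planar polarity, and DCHS1 alone of the pair was called. It had 58.2 and 58.0 CPM in shUCHL1, 32.2 and 33.1 CPM in shHSPA8, and 41.3 and 44.6 CPM in shCON. The knockdown lines lay on opposite sides of the control, without overlap. Between the knockdown lines DCHS1 was 1.78-fold higher in shUCHL1 (log2 fold change 0.83, SE 0.09, edgeR adjusted p = 0.00268), a call lost narrowly without shUCHL1 replicate 1 (edgeR adjusted p = 0.0504, and 2.9e-06 to 0.0504 over all alternatives). The 1.35-fold rise in shUCHL1 against shCON (0.43, SE 0.09, edgeR adjusted p = 0.0219) was lost without shUCHL1 replicate 1 or 2 and with the length correction (edgeR adjusted p = 0.219, 0.204 and 0.259, and 0.0130 to 0.259 over all alternatives). The 1.32-fold fall in shHSPA8 (-0.40, SE 0.10, edgeR adjusted p = 0.0340) was lost with the length correction, with DESeq2, with 2 lines in the fit and on leaving out any library but shCON replicate 1 (with adjusted p of 0.0575 to 0.173 for those settings, and 0.0229 to 0.173 over all alternatives).

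FAT4 was at 19.2 to 31.5 CPM and was not called. FAT1 had 505 and 463 CPM in shUCHL1, 486 and 694 CPM in shHSPA8, and 505 and 353 CPM in shCON, and was not called either. Its libraries differed within shHSPA8 and within shCON by more than the lines differed on average. The transcripts of FAT1 and FAT4 are among the longest measured, 14.7 and 17.0 kb by the ratio of counts to FPKM.

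Transcript length moved with the differences between libraries of a line. Of the 17 tested members with a length estimate of at least 5 kb, 12 were higher in shCON replicate 1 than in replicate 2, with a median log2 ratio of 0.39, and 4 were higher in shHSPA8 replicate 1 than in replicate 2, with a median of -0.34. In shUCHL1, 14 were higher in replicate 1 than in replicate 2, with a median of 0.06. Over all 1773 tested genes of that length the medians were 0.07 in shUCHL1, -0.24 in shHSPA8 and 0.29 in shCON, on the same side of 0 as the long members in each line. After the length correction, 5 members that had not been called in shUCHL1 were called lower: ITGB3 (log2 fold change -0.46, edgeR adjusted p = 0.00216), ITGB8 (-0.58, edgeR adjusted p = 0.00985), FAT4 (-0.51, edgeR adjusted p = 0.00798), CDH2 (-0.37, edgeR adjusted p = 0.0207) and CDH11 (-0.26, edgeR adjusted p = 0.0281). In shHSPA8, FAT1 (0.38, edgeR adjusted p = 0.00370), CDH11 (0.34, edgeR adjusted p = 0.00860), ITGA4 (0.77, edgeR adjusted p = 0.0315) and ITGAX (0.55, edgeR adjusted p = 0.0395) were then called higher, and PCDH17 (-0.47, edgeR adjusted p = 0.00506) and ITGB3BP (-0.37, edgeR adjusted p = 0.0318) lower, beside ITGB1 above. For shUCHL1 against shHSPA8, CDH2 (0.37, edgeR adjusted p = 0.0218) was then called higher, and FAT1 (-0.34, edgeR adjusted p = 0.00708), ITGB8 (-0.49, edgeR adjusted p = 0.0211), PCDH17 (-0.54, edgeR adjusted p = 0.00343) and PCDH7 (-0.33, edgeR adjusted p = 0.0356) lower.

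**Figure D4:**
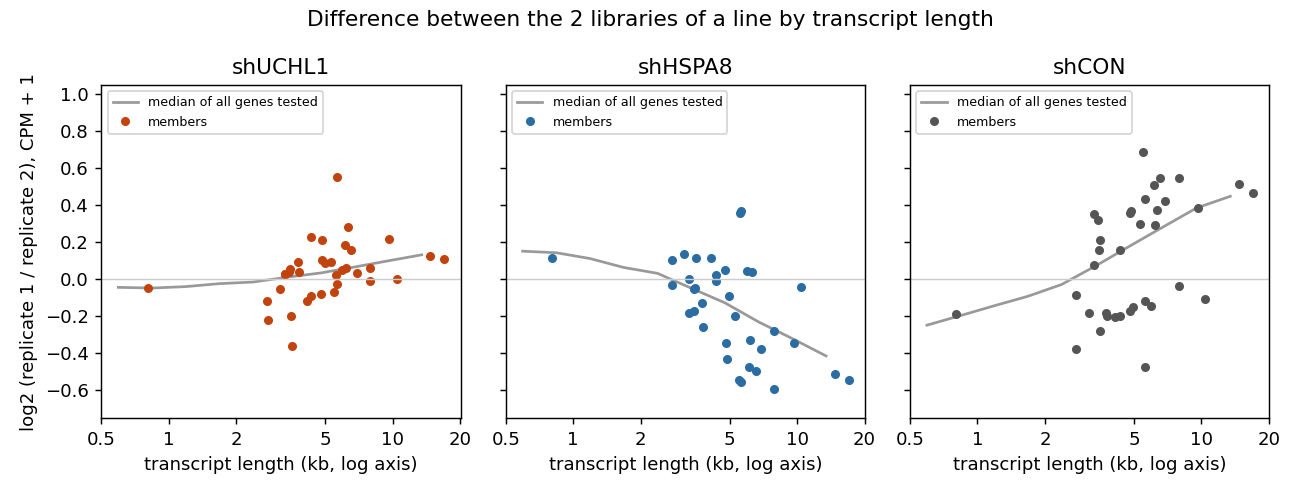
Log2 ratio of replicate 1 to replicate 2 (CPM + 1) against transcript length (kb, log axis) for the tested members with a length estimate (points) and the median of all tested genes in length bins of at least 20 genes (line), in shUCHL1, shHSPA8 and shCON. The line climbs with length in shCON, drops with length in shHSPA8 and is flatter in shUCHL1, where the median of members of at least 5 kb is 0.06.

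The 22 members that were not tested had at most 12 counts in a library. They were ITGB2, ITGB6, ITGA11, ITGAL, ITGAM, ITGB1BP2, ITGBL1, CDH4, CDH8, CDH9, CDH12, CDH15, CDH16, CDH17, CDH20, CDH26, PCDH1, PCDH12, PCDH20, PCDHB1, PCDHB7 and PCDHB16, with 1 to 33 counts each over the 6 libraries. They were left out of the main test, so a difference between the lines was neither shown nor excluded for them.

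Genes that work with these receptors were read from 6 lists, whose counts stand against 8.54% higher and 7.15% lower of all tested genes in shUCHL1, 8.66% and 6.02% in shHSPA8, and 6.2% and 8.35% between the knockdown lines. The naming rule took 77 calls from them, of which 38 held in every alternative. The genes named below come from those 38, a choice made after their values were seen, and the other calls are given in the counts only. Of the integrin activators and adaptors of the adhesion site, 2 of 35 tested rose and 13 fell in shUCHL1 (median log2 fold change -0.21), and 2 rose and 8 fell in shHSPA8 (median -0.26). FBLIM1, an adaptor of filamins, had 38.7 and 44.4 CPM in shUCHL1 against 84.5 and 99.7 CPM in shCON (2.21-fold lower, SE 0.13 on the log2 scale, edgeR adjusted p = 0.00191). TGFB1I1, or Hic-5, a paxillin relative, was 2.20-fold lower in shUCHL1 (SE 0.12, edgeR adjusted p = 0.00135), and TLN2, the second talin, was 3.11-fold higher there (SE 0.19, edgeR adjusted p = 0.00209) and 2.72-fold higher in shHSPA8 (SE 0.19, edgeR adjusted p = 0.00317). In shHSPA8 the tensin TNS3 fell 1.5-fold (SE 0.08, edgeR adjusted p = 0.00348) and NEDD9, a docking protein, 1.70-fold (SE 0.11, edgeR adjusted p = 0.00525).

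Of the ligands of the integrins, those of the matrix included, more were called in shHSPA8 than in shUCHL1, and whether that count differs was not tested. Of 34 tested ligands 19 rose and 4 fell in shHSPA8 (median log2 fold change 0.57), 9 rose and 8 fell in shUCHL1 (median 0.11), and between the knockdown lines 2 were higher and 17 lower in shUCHL1 (median -0.43). TNC, or tenascin-C, a ligand of ITGA9, had 61.6 and 58.3 CPM in shUCHL1, 557 and 577 CPM in shHSPA8, and 64.6 and 63.4 CPM in shCON. It rose 8.86-fold in shHSPA8 (3.15, SE 0.09, edgeR adjusted p = 1.5e-05). SPP1, or osteopontin, another ligand of ITGA9 and of ITGAV receptors, had 94.8 and 94.0 CPM in shUCHL1, 401 and 382 CPM in shHSPA8, and 63.2 and 61.9 CPM in shCON, a 6.26-fold rise in shHSPA8 (2.65, SE 0.08, edgeR adjusted p = 1.5e-05). FN1, or fibronectin, the ligand of ITGA5, was 2.16-fold lower in shUCHL1 than in shCON (-1.11, SE 0.10, edgeR adjusted p = 7.3e-04). LAMA3, a laminin chain, rose 6.91-fold in shUCHL1 (2.79, SE 0.18, edgeR adjusted p = 2.9e-04), and CTGF, a matricellular ligand, fell 2.38-fold (-1.25, SE 0.08, edgeR adjusted p = 2.9e-04). COL4A1, a chain of basement membrane collagen, was 2.63-fold higher in shHSPA8 than in shCON, and 3.64-fold lower in shUCHL1 than in shHSPA8.

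Catenins and partners of the cadherin tail had no higher and 4 lower of 18 tested in shUCHL1 (median log2 fold change -0.03) and no higher and 5 lower in shHSPA8 (median -0.23). JUP, or plakoglobin, the catenin of desmosomes and adherens junctions, had 25.0 and 21.6 CPM in shUCHL1, 24.7 and 22.5 CPM in shHSPA8, and 50.0 and 62.8 CPM in shCON. It fell 2.42-fold in shUCHL1 (-1.28, SE 0.15, edgeR adjusted p = 0.00200) and 2.39-fold in shHSPA8 (-1.26, SE 0.15, edgeR adjusted p = 0.00175). Of other cadherin superfamily genes, 6 of 9 tested rose and none fell in shUCHL1, and 3 rose and 1 fell in shHSPA8. CLSTN3, at most 2.87 CPM, rose 4.27-fold in shUCHL1 (2.09, SE 0.25, edgeR adjusted p = 0.00223), and CLSTN1 rose 1.45-fold in shHSPA8 (0.54, SE 0.08, edgeR adjusted p = 0.00532). CELSR1, a planar polarity cadherin, fell 4.61-fold in shHSPA8 (-2.21, SE 0.31, edgeR adjusted p = 0.00387), at 0.316 and 0.388 CPM there and 1.71 and 1.59 CPM in shCON. Of 16 immunoglobulin adhesion molecules, 7 rose and 1 fell in shUCHL1, and 8 rose and 2 fell in shHSPA8. CADM1, which joins spermatogenic cells to Sertoli cells, rose 2.18-fold in shUCHL1 (1.13, SE 0.10, edgeR adjusted p = 7.1e-04) and 2.31-fold in shHSPA8 (1.21, SE 0.10, edgeR adjusted p = 3.8e-04). Of 22 tetraspanins and sheddases, 3 rose and 2 fell in shUCHL1, and 4 rose and none fell in shHSPA8, among them the metalloproteinase ADAM12, which rose 3.13-fold in shHSPA8 (1.64, SE 0.14, edgeR adjusted p = 4.9e-04).

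**Figure D5:**
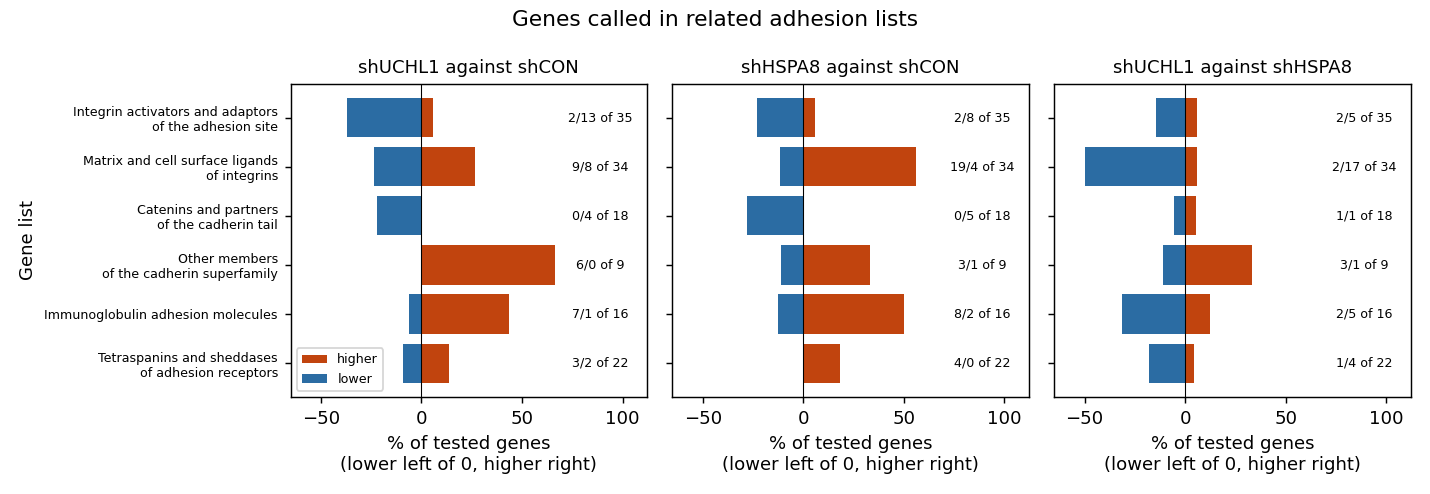
Percent of tested genes of each list that were called higher (right of 0) or lower (left of 0) in each comparison, with the counts higher/lower of tested beside the bars. The ligand list reaches furthest right in shHSPA8 against shCON (19 of 34) and furthest left between the knockdown lines (17 of 34), and the catenin list has no higher gene in either comparison with shCON.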

How the data were processed

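Messenger RNA was sequenced in 6 libraries, 2 per line. Groups and replicate numbers came from the sample titles. Trimmomatic 0.36 is named by the labels, per the submitters' processing notes. Aligner, counter, build and strandedness: not given in the sources used here. The deposited table of the authors lists 33229 entries, and 16630 of them are blank. Per the file headers it holds read counts and FPKM for each library. Between 1014 and 1117 genes per library have decimal fractions, so the authors' read counts were treated like expected counts and rounded. The deposited FPKM values served for levels per length and, with counts, for transcript length. All 62 members were found in the RefSeq table of assembly ARS1.2, used for names and neighbouring genes only.

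Lines were compared by the quasi-likelihood F test of edgeR 4.0.16 in R 4.3.3, with the line as sole term, TMM factors and the filterByExpr filter, over 12665 genes, and Benjamini-Hochberg adjustment per comparison at 0.05. The SE of a log2 fold change is the absolute value over the root of F. Replicates of a line differed beyond sampling noise (chi-square per degree of freedom 2.38 in shUCHL1, 11.8 in shHSPA8 and 21.8 in shCON). Alternatives were DESeq2 1.42.0, library size alone, no filter, 2 lines in the fit, a replicate block, each library left out, and, added after seeing the data, offsets from a loess on transcript length (span 0.5). The fit was also run on simulated counts, and the outcome of that run is not given here. Members called in any comparison with a mean of at least 5 CPM are given per library. From each list, up to 3 called genes per direction and comparison were taken by lowest p. The members and lists were chosen with earlier results of these data known. No sequence is printed.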

Additional observations from a re-analysis of the deposited data

How the results depend on the processing

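Over 12 alternatives, 899 values of the 25 called members were recomputed and none that was called changed sign. Of 44 member calls, 29 were lost without at least 1 library, 13 of them also under at least 1 other setting, and 2, both of DCHS1, with the length correction. Leaving out 1 library gave 528 to 2615 changed genes and 5 to 16 changed members in shUCHL1 against shCON (main 1987 and 17), 920 to 2416 and 7 to 14 in shHSPA8 against shCON (main 1859 and 13), and 257 to 3083 and 5 to 20 between the knockdown lines (main 1843 and 14). The lowest counts in shUCHL1 came without a shUCHL1 library.

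With a replicate block the counts were 1230 genes and 11 members in shUCHL1, 1131 genes in shHSPA8, and 923 genes for shUCHL1 against shHSPA8, with 13 member calls lost (adjusted p from 0.0533 to 0.115 in edgeR): DCHS1, CDH13, CDH3, ITGA3, ITGAE and ITGAX in shUCHL1, DCHS1, CDH23, CDH24 and ITGB3 in shHSPA8, and L1CAM, CDH18 and ITGA10 between the knockdown lines. Deviations of same-numbered libraries had a correlation of 0.34 between shUCHL1 and shCON, -0.68 between shHSPA8 and shCON and -0.34 between shUCHL1 and shHSPA8. The labels give no shared culture, so whether same-numbered libraries share more than a number is not known. With 2 lines in the fit, 1104 genes changed in shHSPA8 and 3116 between shUCHL1 and shHSPA8, while 2882 changed between the knockdown lines with the length correction. The cause of these differences was not tested.

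Scaling by library size alone moved the median log2 fold change of all genes by 0.10 between the knockdown lines, with 1339 of 2079 changed genes higher against 785 of 1843, and gave 1368 of 2009 higher in shUCHL1 against 1082 of 1987. Depth limits the members with few counts, of which 22 were not tested.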
